A study of Mus musculus with 16 samples.

Results

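The H3K27ac peaks of mouse cells directed to endoderm were compared between the wild type (WT) and the arid4b-delta genotype. Both peak lists were taken whole, 14216 peaks in WT and 35884 in arid4b-delta, which is 50100 of the 224510 peaks in the 12 lists of the study. The cells were CJ9, a line of mouse embryonic stem cells, given 5 days of directed differentiation to endoderm or mesoderm, then crosslinked in 1% formaldehyde over 8 min and immunoprecipitated for H3K4me3, H3K27me3 or H3K27ac. The WT group is CJ9 with no stated change, and the arid4b-delta group is CJ9 with a deletion in Arid4b, whose extent the labels do not give. They do not say whether the deleted line is 1 clone, or which agents directed the cells. Each group has 1 library, so nothing below has a test between genotypes, and intervals (exact Clopper-Pearson, 95%) cover counting error only.

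H3K27ac is acetylation of lysine 27 of histone H3, a mark of promoters and enhancers in use. It is written by acetyltransferases such as p300 and CBP and removed by histone deacetylases, and the same lysine can carry the methylation that Polycomb writes instead. Arid4b is a subunit of the Sin3-HDAC complex, a corepressor that brings deacetylases to chromatin. Endoderm arises from epiblast cells that pass through the primitive streak under Nodal and Wnt signals, and then turn on Sox17, Foxa2 and Gata factors.

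The label endoderm was checked against the promoters of 11 definitive endoderm genes, and the data go against it. In WT 1 of the 11, Gsc, had an H3K27ac peak, and in arid4b-delta 0 had one. Sox17, Foxa2, Gata4, Gata6, Cxcr4, Hhex and Eomes were among those with none. H3K27me3, the Polycomb mark, lay at 8 of the 11 in WT and at 10 in arid4b-delta. All 6 general pluripotency markers, Pou5f1, Sox2, Utf1, L1td1, Tdgf1 and Lin28a, had H3K27ac in both genotypes. Of 7 naive pluripotency markers, 1 (Nanog) was marked in WT and 0 in arid4b-delta, and of 5 neuroectoderm markers 1 (Nes) and 0. The 9 mesoderm, 6 extraembryonic endoderm, 4 trophoblast and 5 fibroblast markers had none in either genotype. The lists are therefore called here by their labels, as the libraries labelled endoderm. A bulk peak cannot tell fewer cells with a mark from less mark in each cell.

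The 8 promoters below show the contrast at single genes, with Pou5f1 beside it as a promoter marked in both. Each is shown as the 300 bases from 250 before to 50 after the RefSeq start, 5′ to 3′ on the gene's strand, build GRCm38.p6 (mm10). Nanog (chr6:122707315-122707614, plus strand), Gsc (chr12:104473187-104473486, minus), Krt18 (chr15:102027966-102028265, plus) and Mospd3 (chr5:137601010-137601309, minus) were marked in WT only. Dnmt3b (chr2:153649199-153649498, plus), Crebbp (chr16:4213355-4213654, minus) and Tgfbr2 (chr9:116175314-116175613, minus) were marked in arid4b-delta only. Pou5f1 (chr17:35505782-35506081, plus) was marked in both. The peaks of highest fold enrichment at Nanog, Gsc, Krt18, Dnmt3b and Pou5f1 lay outside the printed bases, which there are the gene start and not the peak. Capitals mark CG, the CpG dinucleotide.
Nanog: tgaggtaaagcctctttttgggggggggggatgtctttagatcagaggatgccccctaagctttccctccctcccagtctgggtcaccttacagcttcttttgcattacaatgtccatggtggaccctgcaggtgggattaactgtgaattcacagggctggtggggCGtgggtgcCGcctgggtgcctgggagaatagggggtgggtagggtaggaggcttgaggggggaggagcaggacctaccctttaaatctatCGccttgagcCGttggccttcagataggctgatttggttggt
Gsc: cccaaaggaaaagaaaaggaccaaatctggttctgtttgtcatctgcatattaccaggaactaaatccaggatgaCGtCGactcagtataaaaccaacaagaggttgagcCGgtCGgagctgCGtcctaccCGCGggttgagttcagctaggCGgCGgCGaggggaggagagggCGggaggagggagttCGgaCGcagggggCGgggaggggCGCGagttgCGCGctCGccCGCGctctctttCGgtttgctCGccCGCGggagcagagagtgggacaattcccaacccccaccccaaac
Krt18: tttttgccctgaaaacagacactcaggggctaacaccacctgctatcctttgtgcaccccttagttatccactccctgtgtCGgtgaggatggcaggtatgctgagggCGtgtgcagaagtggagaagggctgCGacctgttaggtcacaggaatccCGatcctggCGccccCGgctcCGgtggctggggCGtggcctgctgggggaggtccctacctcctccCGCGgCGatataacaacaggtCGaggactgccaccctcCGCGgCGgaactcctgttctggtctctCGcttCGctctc
Mospd3: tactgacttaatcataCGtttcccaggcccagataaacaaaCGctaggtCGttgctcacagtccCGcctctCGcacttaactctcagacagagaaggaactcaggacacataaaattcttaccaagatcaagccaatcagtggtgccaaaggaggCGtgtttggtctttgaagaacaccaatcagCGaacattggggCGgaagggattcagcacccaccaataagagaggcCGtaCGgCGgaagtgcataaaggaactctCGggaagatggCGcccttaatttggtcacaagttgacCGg
Dnmt3b: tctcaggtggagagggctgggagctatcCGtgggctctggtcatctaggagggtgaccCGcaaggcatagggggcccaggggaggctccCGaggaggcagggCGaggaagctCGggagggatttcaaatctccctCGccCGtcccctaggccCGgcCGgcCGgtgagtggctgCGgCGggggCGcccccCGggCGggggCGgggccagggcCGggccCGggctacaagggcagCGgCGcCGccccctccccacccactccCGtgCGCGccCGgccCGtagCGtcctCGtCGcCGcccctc
Crebbp: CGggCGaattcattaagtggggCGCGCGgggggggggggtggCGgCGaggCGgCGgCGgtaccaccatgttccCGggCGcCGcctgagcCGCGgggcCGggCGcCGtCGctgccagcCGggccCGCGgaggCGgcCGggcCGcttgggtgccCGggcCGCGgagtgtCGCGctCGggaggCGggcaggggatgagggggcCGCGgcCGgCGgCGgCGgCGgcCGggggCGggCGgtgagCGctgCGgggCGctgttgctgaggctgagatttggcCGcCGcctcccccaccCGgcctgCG
Tgfbr2: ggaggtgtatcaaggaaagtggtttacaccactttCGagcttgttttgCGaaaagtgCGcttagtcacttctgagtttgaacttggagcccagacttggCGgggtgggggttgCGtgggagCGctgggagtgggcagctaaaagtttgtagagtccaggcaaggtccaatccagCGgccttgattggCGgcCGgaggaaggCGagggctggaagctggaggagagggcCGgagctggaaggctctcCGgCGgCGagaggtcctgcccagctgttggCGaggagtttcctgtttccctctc
Pou5f1: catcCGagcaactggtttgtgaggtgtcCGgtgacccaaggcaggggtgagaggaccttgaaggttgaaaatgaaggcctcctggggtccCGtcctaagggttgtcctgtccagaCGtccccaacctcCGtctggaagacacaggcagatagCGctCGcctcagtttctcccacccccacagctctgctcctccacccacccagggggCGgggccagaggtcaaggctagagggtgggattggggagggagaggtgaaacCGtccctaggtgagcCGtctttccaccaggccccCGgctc

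These stretches held 4 CpG at Nanog, 25 at Gsc, 17 at Krt18, 14 at Mospd3, 30 at Dnmt3b, 49 at Crebbp, 15 at Tgfbr2 and 11 at Pou5f1. The 2 groups of 1-genotype promoters overlapped in this measure. Over all genes with a start in the RefSeq table, the median was 20 CpG per 300 bases at the 853 promoters marked in WT only and 20 at the 862 marked in arid4b-delta only. It was 25 at the 4251 marked in both and 7 at the 11525 marked in neither. The GC box, GGGCGG on either strand, a site bound by Sp1-type factors, lay in 67.3% of WT-only and 61.7% of arid4b-delta-only promoters, against 74.1% of those marked in both and 49.2% of all 17491. CCAAT, on either strand, was in 45.4%, 44.4% and 44.2% of the 3 groups and in 42.3% of all. TATAAA, on either strand, was in 9.38%, 11.1% and 8.05%, and in 14.8% of all. WT-only and arid4b-delta-only promoters were thus close to each other in these letters, and both lay between the promoters marked in both genotypes and those marked in neither, except for CCAAT.

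On chromosomes 1 to 19, X and Y the WT list held 14167 peaks covering 5.24 Mb and the arid4b-delta list 35806 covering 11.2 Mb. Peaks within 2500 bp of either end of a protein-coding gene are called promoter peaks here and all others distal. The promoter peaks were alike in number, 8248 in WT and 8429 in arid4b-delta. The difference in length lay in the distal peaks, 5919 in WT and 27377 in arid4b-delta. Of the WT promoter peaks 6007 (72.8%, interval 71.9 to 73.8%) overlapped an arid4b-delta peak by at least 1 bp, and of the WT distal peaks 4013 (67.8%, 66.6 to 69.0%) did. Of the arid4b-delta promoter peaks 6000 (71.2%, 70.2 to 72.2%) overlapped a WT peak. Of its distal peaks 3676 (13.4%, 13.03 to 13.8%) did, which left 23701 distal peaks in the arid4b-delta list alone, against 1906 in the WT list alone.

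Both lists were cut to 14167 peaks by fold enrichment, the peak caller's ratio over local background. This left the WT list whole and removed every arid4b-delta peak under a fold of 6.41. The distal share of the arid4b-delta list was then 61.5%, against 41.8% in WT. At this equal length 83.4% of the arid4b-delta promoter peaks and 30.8% of its distal peaks overlapped a WT peak. Of the WT peaks 58.1% of the promoter and 53.0% of the distal ones still overlapped an arid4b-delta peak. With the distal peaks alone cut to equal number, an alternative added after the data were seen, 47.6% of the WT and 39.2% of the arid4b-delta distal peaks overlapped. With the longer list cut to cover no more bp than the shorter, 46.2% and 43.0% did. Since a shared peak counts about once in each list, the 2 shares come close by construction as the lists approach equal number. The upper 50% of each list by fold gave distal shares of 76.3% in WT and 15.4% in arid4b-delta, beside 67.8% and 13.4% in the full lists. In the upper 50% the numbers stayed unequal, 2351 WT and 11888 arid4b-delta distal peaks. By the same construction this lowers the share of the longer list.

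Strong WT peaks were nearly all found in arid4b-delta, and strong arid4b-delta distal peaks often were not found in WT. Each list was set against the whole of the other, so WT peaks had the longer list to overlap. In the top 10% of the WT list by fold 99.6% of promoter and 99.0% of distal peaks overlapped an arid4b-delta peak. In the top 10% of the arid4b-delta list 96.3% of promoter and 69.7% of distal peaks overlapped a WT peak. In the lowest 10% the WT shares were 47.6% and 61.9%. In decile 3 of the arid4b-delta list, counted from the lowest fold, the distal share was at its smallest, 2.05%.

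**Figure D1:**
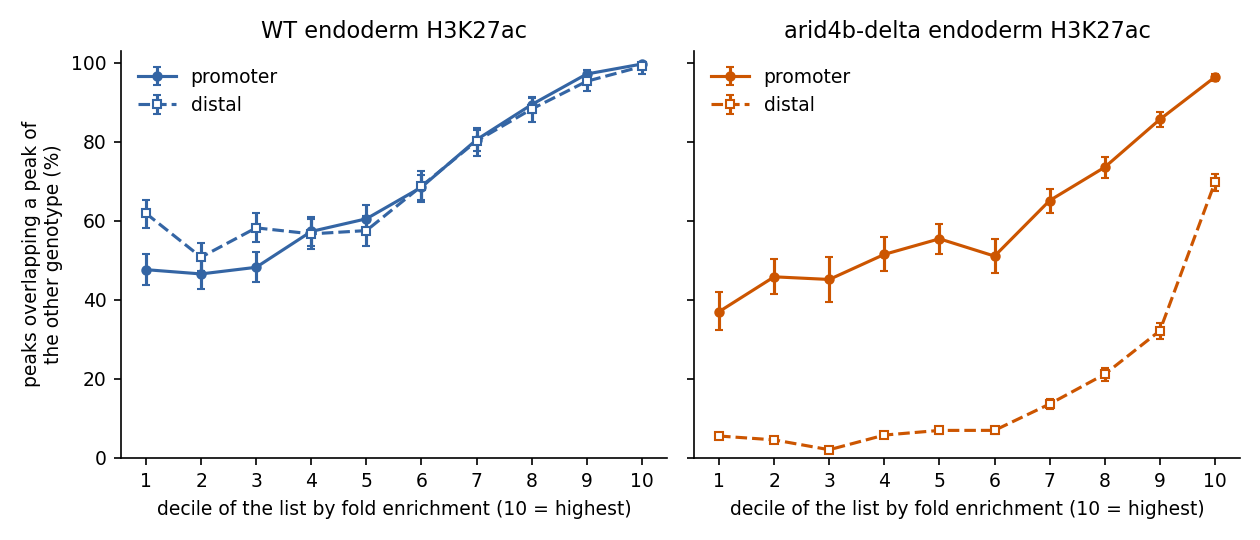
Share of peaks (y axis, %) that overlap a peak of the other genotype, by decile of each list in order of fold enrichment (x axis), for promoter peaks (filled circles, solid) and distal peaks (open squares, dashed), with WT on the left and arid4b-delta on the right; bars are exact 95% intervals. The WT curves reach 99.6% and 99.0%, and the arid4b-delta distal curve stays low until the upper deciles and ends at 69.7%.

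The fold and the -log10 p of each peak together give the whole number of fragments piled up at its summit and the background expected there, and these were recovered for 100% of the peaks. The background pileup of the WT library was 1.47 fragments and that of the arid4b-delta library 0.764, a ratio of 1.93. The longer list thus came from the library with the lower background, which stands for fewer fragments if both were called with the same settings. Heights below are the summit pileup divided by the library's own background, a scale chosen after the data were seen. The lowest called height at background was 6.10 in WT, a pileup of 9, and 7.86 in arid4b-delta, a pileup of 6. Depth, antibody yield and genotype cannot be told apart with 1 library each.

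The distal peaks found in arid4b-delta alone were mostly low and short. Their median pileup was 10 fragments and their median length 194 bp. That pileup is a height of 13.1 (exact Poisson 95% interval of the count, divided by the background, 6.28 to 24.1). A pileup of at most 10 was seen in 15031 of the 23701. Their nearest WT peak was a median of 179376 bp away, and 74.6% lay over 50000 bp from one. Peaks found in WT alone had median pileups of 17 at promoters and 16 distally, heights of 11.5 (6.72 to 18.5) and 10.9 (6.20 to 17.6). An arid4b-delta peak lay within 1000 bp of 50.1% of the WT-only promoter peaks and 39.1% of the WT-only distal ones. Of the peaks found in arid4b-delta alone, 37.6% of the promoter and 4.82% of the distal ones had a WT peak that near. The intervals in brackets are for a single count of that size, on the scale of height.

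Peaks of great height were shared in unlike proportions in the 2 lists. Each was set against the whole of the other list, 35806 arid4b-delta peaks for WT and 14167 WT peaks for arid4b-delta. A given height also stands for fewer fragments in arid4b-delta, where the background was 0.764 against 1.47 in WT. The part of either in the shares below was not tested. At a height of at least 30, 2 of 1265 WT promoter peaks and 3 of 465 WT distal peaks had no arid4b-delta peak. In the arid4b-delta list 119 of 2198 promoter peaks (5.41%) and 585 of 1820 distal peaks (32.1%) of that height had no WT peak. At a height of at least 20 the counts were 72 of 2916 and 36 of 1126 in WT, and 432 of 4225 and 2323 of 4466 in arid4b-delta. At peaks found in both lists the direction depended on the scale. The median log2 ratio of arid4b-delta to WT height was 0.34 over the 6007 shared WT promoter peaks and 0.69 over the 4013 shared WT distal peaks, and arid4b-delta was higher at 76.9% and 86.8% of them. By the authors' fold the median log2 ratios were 0.03 and 0.37, with arid4b-delta higher at 52.1% and 68.8%. By pileup, with no scaling, they were -0.61 and -0.26. The direction thus turned with the scale in both classes, and at promoters the ratio by fold was near 0. Among the shared distal peaks in the lowest 20% of WT heights the median log2 height ratio was 1.36, and in the highest 20% it was 0.33. These groups were set by WT height, the denominator of the ratio, so a fall from low to high is partly built in.

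The mesoderm libraries, measured in the same way, gave the same order. In mesoderm 38.98% of WT distal and 82.2% of arid4b-delta distal peaks had no peak of the other genotype, against 32.2% and 86.6% in endoderm. At a height of at least 30 the mesoderm shares were 2.41% and 39.9%, against 0.645% and 32.1% in endoderm. The background pileups there were 1.45 in WT and 0.732 in arid4b-delta, a ratio of 1.98, so the lower background also moved with the genotype in mesoderm. Its part in the result was not tested.

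**Figure D2:**
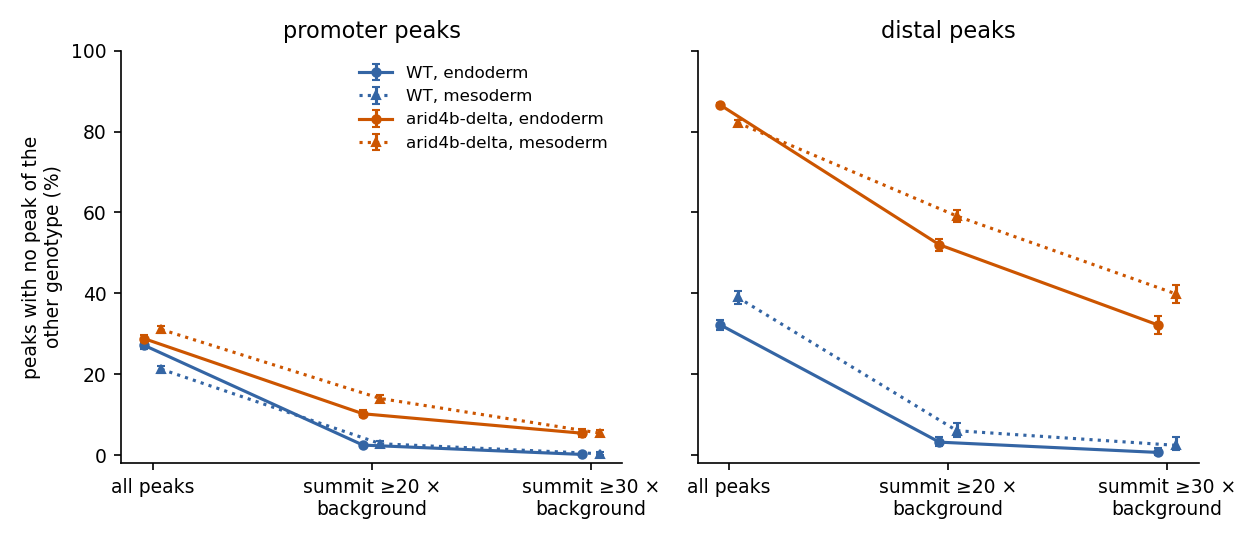
Share of peaks (y axis, %) with no peak of the other genotype, for all peaks and for peaks with a summit at least 20 or 30 times the library's background (x axis), promoter peaks on the left and distal peaks on the right. Circles with solid lines are endoderm and triangles with dotted lines mesoderm, blue is WT and orange arid4b-delta, and bars are exact 95% intervals; the arid4b-delta distal lines stay highest, at 32.1% in endoderm and 39.9% in mesoderm at the greatest height.

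At gene promoters the numbers were close to even. A promoter is called marked when a peak lies within 2500 bp of the gene's start, or of either end for the 4392 genes whose start is not in the RefSeq promoter table. Of 21883 protein-coding genes 5181 were marked in both genotypes, 1057 (4.83%) in WT only, 1081 (4.94%) in arid4b-delta alone and 14564 in neither. At equal list length, where only the arid4b-delta list lost peaks, WT-only genes numbered 1916 (8.76%) and arid4b-delta-only genes 493 (2.25%). With only peaks at least 15 times the background in each list, the counts were 394 and 1536. Which genotype had more genes of its own therefore turned with the way the lists were set beside each other, and no direction over all genes is given.

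Over 447 genes in 23 lists, 23 (5.15%) were marked in WT only and 22 (4.92%) in arid4b-delta only, close to the 4.83% and 4.94% of all genes. Marked in either genotype were 54.4% of the 447 and 33.5% of all genes. The counts for each list below are to be read beside these shares of all genes, and none was tested. At the 23 WT-only genes the WT summit heights ran from 8.14 to 21.0 with a median of 11.5. At the 22 arid4b-delta-only genes the heights ran from 11.8 to 34.1 with a median of 17.0. By pileup the order turned, with medians of 17 fragments at the WT-only and 13 at the arid4b-delta-only genes. A height of 20 was reached by 1 of the 23 and 6 of the 22. At the 198 listed genes marked in both, the arid4b-delta height was greater at 77.3%, with a median log2 ratio of 0.33, and over all 5181 such genes at 75.5%, with 0.31. By fold, arid4b-delta was greater at 47.5% of the 198 and 48.5% of the 5181, with median log2 ratios of -0.04 and -0.02, and by pileup at 4.04% and 9.28%. No direction is therefore given for the genes marked in both.

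**Figure D3:**
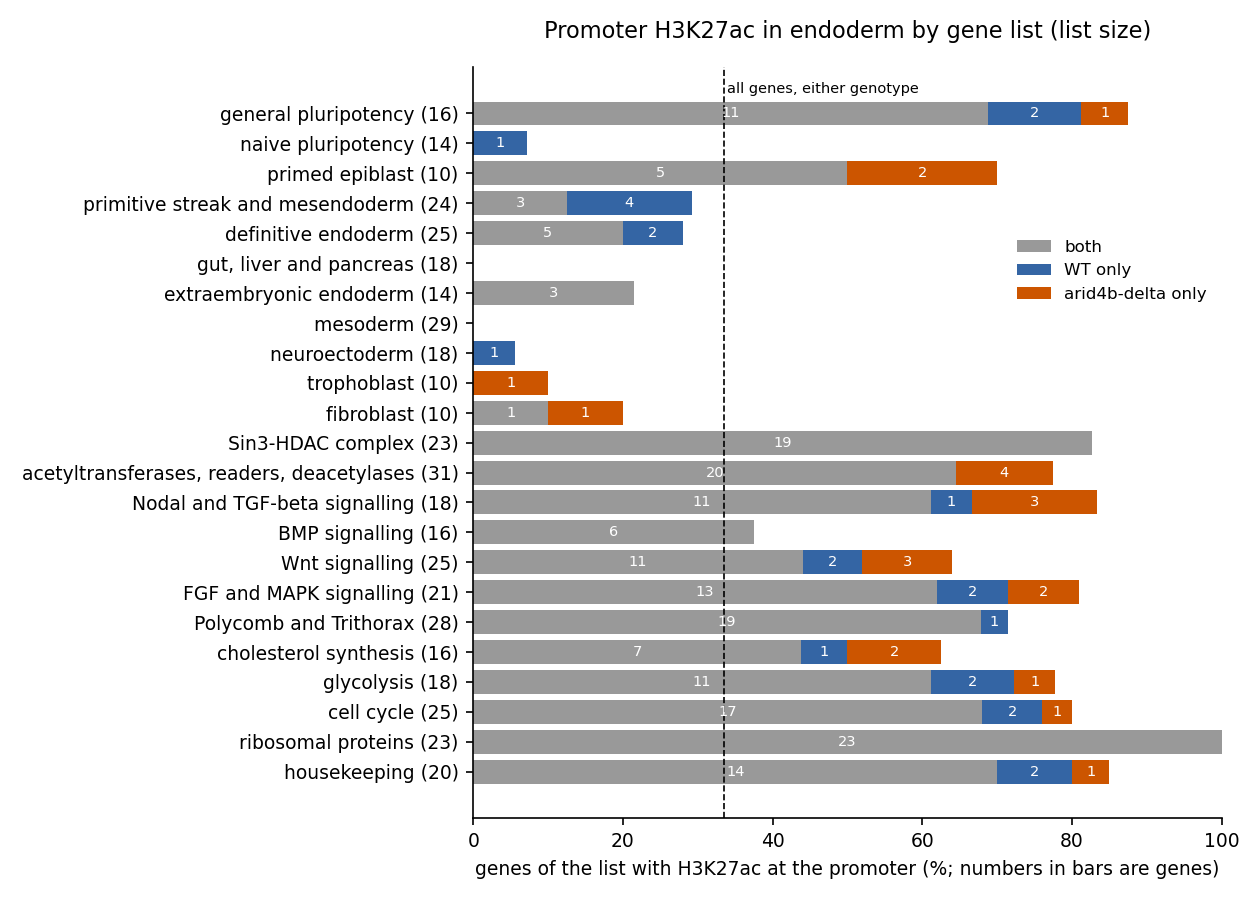
Share of each gene list (x axis, %) with an H3K27ac peak at the promoter in both genotypes (grey), WT only (blue) or arid4b-delta only (orange); numbers in the bars are genes, the list size is in brackets, and the dashed line is the share of all 21883 genes marked in either genotype. Mesoderm and gut, liver and pancreas lists have no marked gene, while all 23 ribosomal protein genes are marked in both.

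Few primitive streak genes were marked. Of 24 such genes 4 were marked in WT alone, 0 in arid4b-delta alone, 3 (Nodal, Foxh1 and Lefty1) in both and 17, T, Eomes and Mixl1 among them, in neither. Fgf8, a growth factor of the streak, had a WT peak at chr19:45733935-45734557 with a pileup of 25 and a height of 17.0, and the nearest arid4b-delta peak was 32498 bp from an end of the gene. Wnt3, the ligand that starts streak formation, had a pileup of 16 at a height of 10.9 (chr11:103771743-103771971). Gsc, a homeobox factor of the anterior streak whose CpG-rich promoter is printed above, had a pileup of 12 at a height of 8.14 (chr12:104472921-104473161). Wnt8a, a streak ligand, had a pileup of 17 and a height of 11.5. Of the 4, Fgf8 alone was above 15 and alone kept its call in the upper 50% of the list. With a window of 1000 bp Wnt3 and Wnt8a were marked in neither genotype. The starts of Fgf8 and Wnt8a were not in the promoter table, so their peaks may lie at the far end of the gene. The share marked in WT only, 16.7%, stands beside 4.83% of all genes, and rests on these 4 calls.

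The Nodal ligand and its inhibitor Lefty1 were marked in both. Nodal had a pileup of 34 in WT (height 23.1) and of 26 in arid4b-delta (height 34.1). Lefty1 had 34 (23.1) and 29 (38.0). Both genes thus carried more fragments in WT and a greater height in arid4b-delta.

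The definitive endoderm list of 25 genes had 2 marked in WT only, 0 in arid4b-delta only and 5 in both, which left 18 in neither. The WT-only pair were Krt8 and Krt18, the keratins of simple epithelia, which lie side by side on chromosome 15. Krt8 had a pileup of 12 and a height of 8.14, and Krt18 a pileup of 17 and a height of 11.5 with its summit upstream of the start. In arid4b-delta the nearest peaks were 12643 and 11084 bp from them. Epcam and Cdh1, adhesion molecules of epithelial and stem cells, were marked in both, with pileups of 57 and 38 at Epcam and of 64 and 55 at Cdh1, WT first. The 18 gut, liver and pancreas genes and the 29 mesoderm genes had no mark in either genotype, though H3K4me3 lay at 10 and 16 of them in WT and 12 and 23 in arid4b-delta.

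Most general pluripotency genes were marked in both genotypes. Of 16 general pluripotency genes 11 were marked in both, 2 in WT only and 1 in arid4b-delta only. Pou5f1, the core pluripotency factor Oct4, had a peak upstream of its start, at chr17:35503980-35504951 in WT, with a pileup of 76 in WT and 40 in arid4b-delta, heights of 51.6 and 52.4. Sox2, its partner, had pileups of 21 and 15 at heights of 14.2 and 19.7. The deleted gene itself, Arid4b, had a promoter peak in both genotypes, with pileups of 61 and 39 at heights of 41.4 and 51.1 (chr13:14063775-14064237 in WT), which says nothing of the deleted part.

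Nanog, a factor of naive pluripotency, was marked in WT only. Its WT peak, at chr6:122707618-122707820 and just past the printed stretch, had a pileup of 19 and a height of 12.9, and the nearest arid4b-delta peak lay 4517 bp from the start. With a window of 5000 bp, or with either end of the gene, Nanog was marked in both genotypes, so the call rests on the window. The other 13 naive genes, such as Zfp42, Klf4 and Esrrb, were marked in neither. Zfp281 (pileup 17, height 11.5) and Foxd3 (15, 10.2), regulators of the exit from naive pluripotency, were marked in WT only. Myc, a growth-promoting factor, was marked in arid4b-delta only, with a pileup of 15 and a height of 19.7 (chr15:61984977-61985135).

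Of 10 primed epiblast genes 5, Fgf5 and Otx2 among them, were marked in both, 2 in arid4b-delta alone and 0 in WT alone. The 2 were Dnmt3b, a de novo DNA methyltransferase, and Pou3f1, also called Oct6, each with a pileup of 11 and a height of 14.4. Neither was kept in the arid4b-delta list of equal length. The share of these 2, 20%, stands beside 4.94% of all genes. However, 70% of this list and 33.5% of all genes were marked in either genotype. Fgf5 had pileups of 26 and 26, which are heights of 17.6 and 34.1.

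The list for the Sin3-HDAC complex, in which Arid4b works, had no gene marked in 1 genotype only. It also holds genes with looser links to the complex. Of its 23 genes 19 were marked in both and 4 in neither. Over all genes 4.83% were marked in WT only and 4.94% in arid4b-delta only. In a list of 23 such shares come to few genes, so 0 is near them. At equal list length 2 were marked in WT only and 0 in arid4b-delta only. Sin3a, the scaffold, had pileups of 26 in WT and 23 in arid4b-delta (heights 17.6 and 30.1), Hdac1 25 and 17 (17.0 and 22.3), and Hdac2 42 and 29 (28.5 and 38.0). Arid4a, the paralogue of Arid4b, had 52 and 29 (35.3 and 38.0). The arid4b-delta value was greater at 17 of the 19 by height, at 10 by fold and at 2 by pileup, so no direction is given for the list.

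The 31 acetyltransferases, bromodomain readers and other deacetylases had 4 marked in arid4b-delta only, 0 in WT only and 20 in both. Crebbp, which encodes the acetyltransferase CBP, had a pileup of 17 and a height of 22.3 at chr16:4213550-4213730, overlapping the promoter printed above. Kat2b, another acetyltransferase, had a pileup of 13 and a height of 17.0. Hdac5, a deacetylase of another class, had 16 and 21.0, and Brd7, a bromodomain subunit of a remodelling complex, 12 and 15.7. Ep300, the partner of CBP, was marked in both, with pileups of 66 and 59. Brd7 alone of the 4 was lost at equal list length. Their share, 12.9%, stands beside 4.94% of all genes. However, 77.4% of this list and 33.5% of all genes were marked in either genotype, so the list had more marked genes to begin with.

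Signalling genes showed calls on both sides. In Nodal and TGF-beta signalling, 18 genes, arid4b-delta alone marked 3 and WT alone 1. The 3 were the receptors Tgfbr1 (pileup 12, height 15.7) and Tgfbr2 (15, 19.7) and the ligand Gdf3 (14, 18.3), and the 1 was Ski, a corepressor of Smad proteins (23, 15.6). In Wnt signalling, 25 genes, Lrp6, a co-receptor, had the greatest height of any listed 1-genotype gene, in arid4b-delta, at chr6:134567016-134567268 with a pileup of 26 and a height of 34.1. The receptor Fzd3 (9, 11.8) and Znrf3 (12, 15.7), an enzyme that removes Wnt receptors, were marked in arid4b-delta only as well. The WT-only Wnt genes were Tcf7, a nuclear effector (19, 12.9), and the receptor Fzd8 (17, 11.5). Of the Wnt list 12% was marked in arid4b-delta only, 8% in WT only and 64% in either genotype.

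In FGF and MAPK signalling, 21 genes, the immediate early genes Egr1 (pileup 21, height 14.2) and Fos (15, 10.2) were marked in WT only. The feedback inhibitor Spry1 (13, 17.0) and the kinase Mapk3 (10, 13.1) were marked in arid4b-delta only. Each pair was 9.52% of the list, of which 80.95% was marked in either genotype. BMP signalling, 16 genes, had 6 in both, its receptors Bmpr1a and Bmpr2 among them, and none in 1 genotype only. The ligands Bmp2, Bmp4 and Bmp7 and the targets Id1, Id2 and Id3 were marked in neither.

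Genes of general cell functions were mostly marked in both genotypes. All 23 ribosomal protein genes were. Of 25 cell cycle genes 17 were marked in both, Cdk4 (pileup 14, height 9.50) and Mcm2 (24, 16.3) in WT only, and E2f1 (15, 19.7) in arid4b-delta only. Of 18 glycolysis genes 11 were marked in both, Tpi1 and Slc16a3 in WT only, both at a height of 9.50, and Pdk1 in arid4b-delta only at 15.7. Of 16 cholesterol synthesis genes 7 were in both, Fdps was in WT only (17, 11.5), and Hmgcs1 (18, 23.6), an enzyme of the early steps, was among those in arid4b-delta only. Of 28 Polycomb and Trithorax genes 19 were in both and Cbx2 (15, 10.2) in WT only. Of 20 housekeeping genes 14 were in both, Sdha (16, 10.9) and Psmb2 (17, 11.5) in WT only, and Rab7 (19, 24.9) in arid4b-delta only.

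Markers of other cell types gave few calls. Nes, an intermediate filament of neural progenitors, was marked in WT only, with a pileup of 31 and a height of 21.0. Its nearest arid4b-delta peak lay 2803 bp from the start, just outside the 2500 bp window. Ets2 of the trophoblast list (pileup 9, height 11.8) and Fn1 of the fibroblast list (17, 22.3) were marked in arid4b-delta only. Fn1, fibronectin, is expressed by many cell types. The defining trophoblast marker Cdx2 and the fibroblast markers Col1a1 and Col1a2 had no peak in either genotype.

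**Figure D4:**
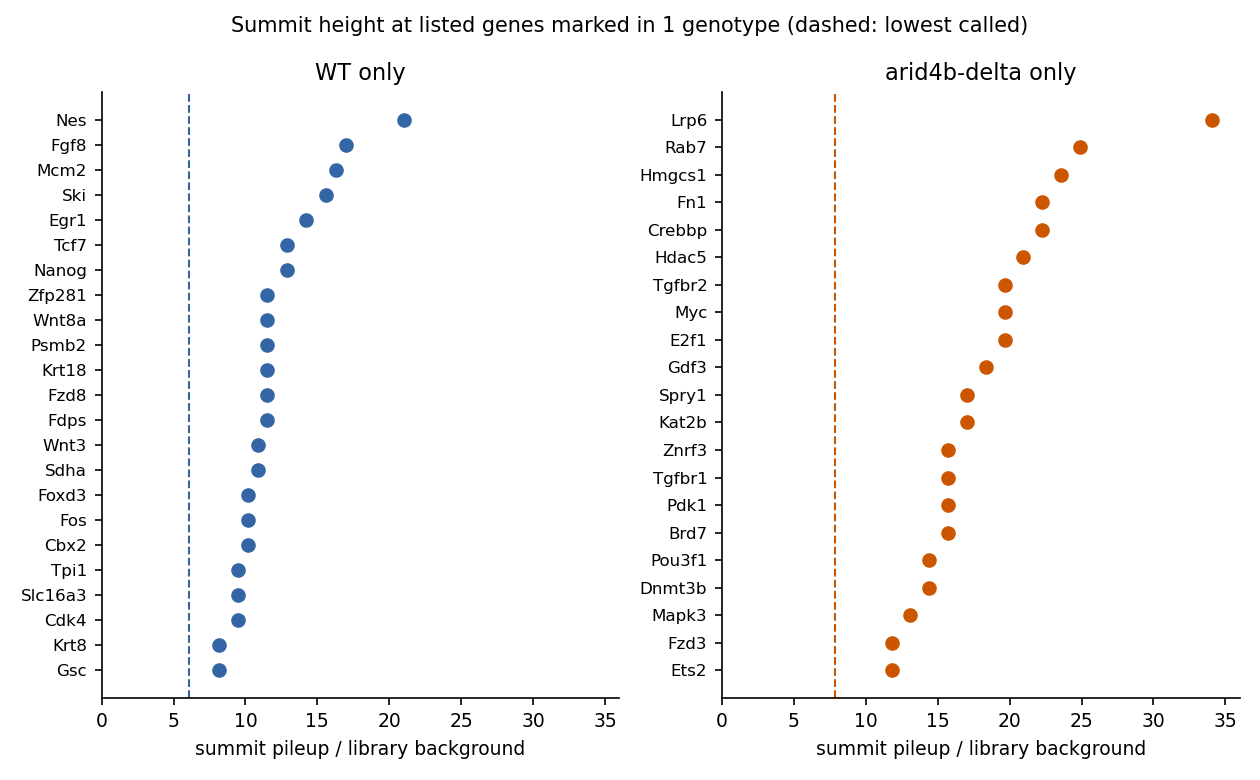
Summit pileup divided by library background (x axis) at listed genes marked in WT only (left) and in arid4b-delta only (right); each point is 1 gene and the dashed line is the lowest called height at background in that library. WT-only genes run from 8.14 to 21.0 and arid4b-delta-only genes from 11.8 to 34.1.

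The strongest 1-genotype promoter peaks, those lying over 5000 bp from any peak of the other genotype, were at genes of many functions. In WT they were at Mospd3 (chr5:137600829-137601045, fold 18.7, pileup 48), Magi3 (15.7, 38), Pdha1, a subunit of pyruvate dehydrogenase (15.4, 37), Hdhd2, Dnajc1, Map2k4, a stress kinase, Arhgef40, Ndufc1, a respiratory complex subunit, Sgf29, a subunit of acetyltransferase complexes, and Elp2. All 10 were also marked in WT mesoderm, and 8 of the 10 in arid4b-delta mesoderm. In arid4b-delta they were at Aven, an inhibitor of cell death (chr2:112492750-112493248, fold 20.9, pileup 36), Cd59b (19.9, 34), Ogn, Uimc1, Zxdb, Rapgef1, Adrm1, Lrp6, Crebzf and Atp5e. All 10 were also marked in arid4b-delta mesoderm, and 9 of the 10 in WT mesoderm. The strongest calls made in 1 endoderm genotype were thus mostly present in both mesoderm genotypes.

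The strongest distal peaks found in arid4b-delta alone mostly had no peak in WT mesoderm. The 5 strongest had as nearest genes Vmn2r33 (chr7:7617256-7619307, fold 26.5, pileup 46), Kif6 (chr17:49781520-49781939, 23.8, 41), Xkr9 (20.7, 41), Tifab (20.4, 35) and Edil3 (19.3, 33), at 17134 bp (Tifab) to 1308283 bp (Edil3). All 5 had a peak in arid4b-delta mesoderm and 1 of the 5, near Xkr9, in WT mesoderm. The 5 strongest in WT were nearest to Unc5cl (chr17:48616504-48616873, fold 18.6, pileup 45), Agpat3, Zswim4, Zcchc4 and Lmna, and 4 of the 5, all but that near Agpat3, had a peak in both mesoderm genotypes. The peaks at Zcchc4 and Lmna lay 41 and 0 bp from a RefSeq start although over 2500 bp from a gene end, and so are promoter peaks by that start. Distal peaks within 2500 bp of such a start were 184 of the 1906 WT-only ones (9.65%) and 199 of the 23701 arid4b-delta-only ones (0.840%). Among shared distal peaks they were 11.5% in the WT list and 12.5% in the arid4b-delta list. For comparison, the highest WT peaks that were shared included those at Zcrb1, Setd5, Zzz3 and Sirt4, and distally those near Clasp1, Nfyc, Trappc6b and Kansl1. The heights at Zcrb1 were 90.2 in WT and 93.0 in arid4b-delta. The peaks at Nfyc and Kansl1 lay 0 and 144 bp from a RefSeq start, so they too are promoter peaks by that start.

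Some distal peaks of 1 genotype were packed in short regions. Gas8 had 43 arid4b-delta-only distal peaks within 50000 bp of its start, Dbndd1 42, Rhou 32, Apba2 29 and Atg7 20. The 43 near Gas8 lay within chr8:123539650-123568819, where WT had no H3K27ac peak, arid4b-delta mesoderm had 15 and WT mesoderm 1. The 42 near Dbndd1 lay in this same stretch. The local background of the arid4b-delta peaks there reached 4.37 fragments, and H3K4me3 had 15 peaks in WT and 20 in arid4b-delta. Near Apba2, at chr7:64466899-64496119, WT had none and neither mesoderm library had any, and the local background there reached 8.23 fragments, against 0.764 for the library. The regions of these 5 genes held 124 of the 23701 peaks (0.523%). In WT, Agpat3 and Rrp1 shared 9 WT-only peaks within 6.67 kb of chromosome 10 (chr10:78365288-78371959), with pileups of 13 to 40 and no peak of the other 3 H3K27ac libraries. Btbd17, Commd8 and Dab2ip had 6 each.

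Over the chromosomes the share of arid4b-delta distal peaks with no WT peak ran from 78.4% on chromosome 11 to 92.3% on X and 94.99% on Y. On the 19 autosomes it was at most 90.96%, on chromosome 16. The excess was thus present on every chromosome.

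Other marks set the classes of peaks apart. H3K4me3, the mark of active and poised promoters, lay at 14.9% of WT-only distal peaks and at 6.22% of arid4b-delta-only distal peaks, each in its own genotype, and at 38.6% of the distal peaks shared by arid4b-delta. Distal peaks near a RefSeq start, as counted above, were also more frequent among the shared ones. H3K27me3 of the same genotype lay at 0.787% of WT-only distal, 10.5% of arid4b-delta-only distal and 4.03% of shared distal peaks. At promoters the H3K27me3 shares were 1.61% for WT-only and 2.18% for shared peaks, and 243 of the 2429 arid4b-delta-only ones overlapped it. The arid4b-delta H3K27me3 list covered 21.3 Mb and the WT list 14.1 Mb, and the WT list gave 5.89% at the arid4b-delta-only distal peaks. The H3K27me3 lists reached down to a -log10 q of 0.317 in arid4b-delta and 0.312 in WT. The H3K27ac lists began at 2.02 and 2.44, so the H3K27me3 lists hold less certain peaks.

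The tallest arid4b-delta-only distal peaks overlapped H3K27me3 most. Of the 585 with a height of at least 30, 271 (46.3%, interval 42.2 to 50.5%) overlapped an arid4b-delta H3K27me3 peak, 255 (43.6%) a WT one and 225 (38.5%) both. The 271 fell on 183 arid4b-delta H3K27me3 peaks, the longest of 87818 bp. Some of the 271 thus shared a peak, which the interval does not allow for. Of the 23116 lower ones 9.57% overlapped an arid4b-delta H3K27me3 peak. Of the 1235 shared distal peaks of that height 10.1% (8.50 to 11.9%) did, and 9.64% overlapped a WT one. The local background under the 585 had a median of 1.84 fragments, against 1.09 under the shared peaks of that height. H3K4me3 lay at 19.7% of the 585 and 46.96% of the shared ones. Acetylation and trimethylation were profiled in separate libraries, so overlap does not place both on 1 molecule.

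At these sites mesoderm H3K27ac was called more often in arid4b-delta than in WT. Of the arid4b-delta-only distal peaks 19.5% had a peak in arid4b-delta mesoderm and 1.68% in WT mesoderm. Of the 585 tall ones 83.6% and 18.8% did, and of those with a pileup of at most 10, 6.12% and 0.552%. The arid4b-delta mesoderm list is also the longer one, and its share was the greater at WT-only distal peaks too, 40.9% against 20.5% in WT mesoderm. The 2 mesoderm libraries differ in background in the same way as the endoderm ones, and the part of that was not tested.

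**Figure D5:**
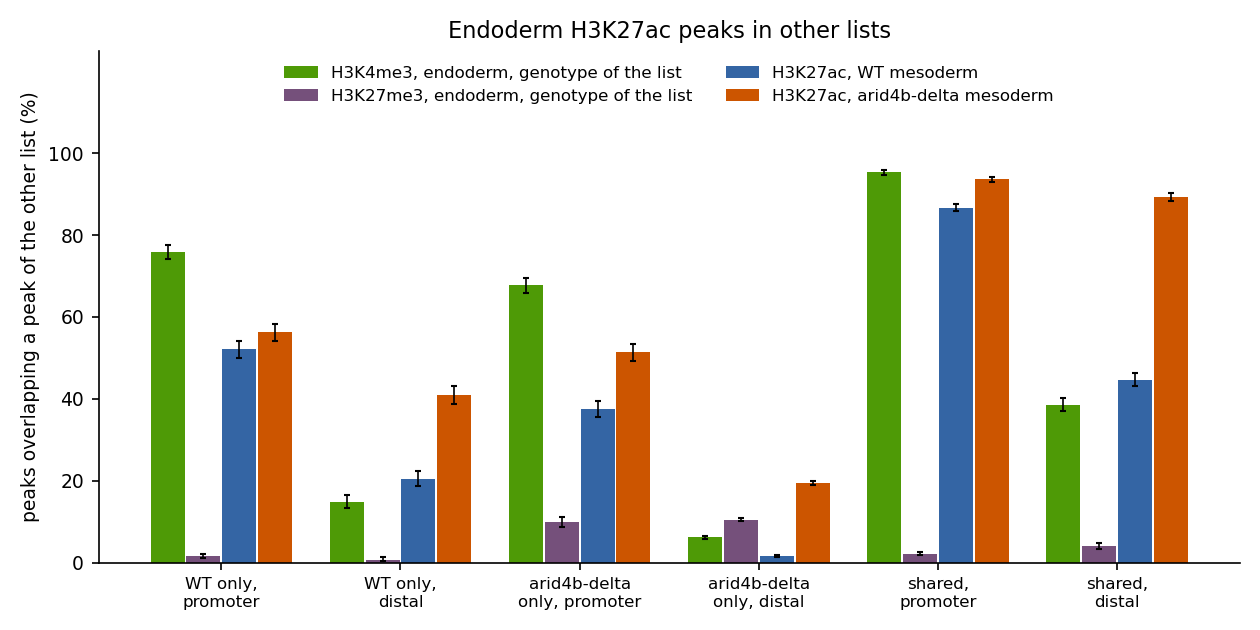
Share of endoderm H3K27ac peaks (y axis, %) that overlap an H3K4me3 or H3K27me3 peak of the same lineage and genotype, or an H3K27ac peak of WT or arid4b-delta mesoderm, for 1-genotype and shared peaks (x axis; shared peaks from the arid4b-delta list); bars are exact 95% intervals. Distal peaks of arid4b-delta alone are at 6.22% for H3K4me3, 10.5% for H3K27me3, 1.68% for WT and 19.5% for arid4b-delta mesoderm.

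Most genes marked in 1 endoderm genotype did not keep that side in mesoderm. The shares that did were above those of genes marked in both or in neither. Of the 1057 genes marked in WT only, 490 were marked in both mesoderm genotypes and 199 in neither. Again in WT only were 149 (14.1%), and in arid4b-delta only 219 (20.7%). Of the 1081 marked in arid4b-delta only, 443 were in both and 323 in neither. Again in arid4b-delta only were 238 (22.0%), and in WT only 77 (7.12%). Genes marked in both endoderm genotypes were WT-only in mesoderm in 1.89% and arid4b-delta-only in 6.20%. For genes marked in neither these shares were 3.62% and 3.96%. Fgf8, Fos and Psmb2 were WT-only in both lineages. Myc, Pou3f1, Gdf3, Kat2b, Spry1 and Pdk1 were arid4b-delta-only in both. H3K4me3 lay at 94.7% of the WT-only genes in WT and at 83.9% of the arid4b-delta-only genes in arid4b-delta. H3K27me3 lay at 8.61% and 19.3% of them in the same order.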

How the data were processed

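ChIP-seq peak lists of 12 libraries were deposited, and 8 were read here. The tools were Bowtie2, Picard and MACS2 and the build mm10, per the submitters' processing notes, while versions and settings are not given in the sources used here. Peaks were called in each library by itself. Column 5 of the deposited lists is the authors' peak score, column 7 their fold enrichment (a ratio), columns 8 and 9 their -log10 p and -log10 q, and column 10 their summit offset, another unit. Chromosomes 1 to 19, X and Y were used, which left out 49 WT and 78 arid4b-delta peaks. Gene ends and promoter sequences are RefSeq GRCm38.p6. 452 of 453 list entries matched, as 447 genes.

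Summit pileup k and background λ were solved from fold = (k + 1)/(λ + 1) and the Poisson tail, the default formulas of MACS2, with a tolerance of 0.002 in -log10 p. A second whole number also fitted for 0% of WT and 0.109% of arid4b-delta peaks. The scripts were tested on simulated data (Python 3.11.15, pandas 2.3.3, scipy 1.17.1).

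The members and lists were chosen with earlier results of these data known. Named genes are listed genes marked in 1 genotype (up to 30 a direction), the 10 promoter and 5 distal peaks of highest fold lying over 5000 bp from the other genotype's peaks, the 5 highest shared peaks of each class, the 5 genes a genotype with most 1-genotype distal peaks within 50000 bp, and 16 fixed genes. Some counted genes are not named or drawn here. Other listed genes named as marked in both or in neither were chosen after their values were seen. Alternatives varied the ranking, thresholds, overlap rule and window.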

Additional observations from a re-analysis of the deposited data

Results flagged for a closer look

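At 219 genes the promoter was marked by H3K27ac in WT only in the libraries labelled endoderm and in arid4b-delta only in those labelled mesoderm. At 77 genes it was the reverse. These were 20.7% of the 1057 WT-only and 7.12% of the 1081 arid4b-delta-only endoderm genes. Genes marked in both endoderm genotypes were arid4b-delta-only in mesoderm in 6.20% and WT-only in 1.89%. For genes marked in neither these shares were 3.96% and 3.62%. The arid4b-delta mesoderm list is also the longer, 22701 peaks against 12450 in WT. These genes are given because the 2 lineages moved opposite ways, with 1 library in each group, and the difference was not tested. Among the listed genes the first kind was seen at Nanog, Nes, Fdps, Tpi1 and Slc16a3, and the second at Mapk3. The WT summits of these 5 in endoderm had heights of 12.9, 21.0, 11.5, 9.50 and 9.50, and the arid4b-delta summit at Mapk3 one of 13.1. At Nes and Fdps an arid4b-delta endoderm peak lay 2803 and 2990 bp from the gene, just outside the promoter window of 2500 bp. With a window of 5000 bp Nanog, Nes and Fdps were marked in both endoderm genotypes.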

How the results depend on the processing

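The share of arid4b-delta distal peaks that overlap a WT peak was below that of WT distal peaks under all 14 alternatives run on it, while its value moved under each. Where arid4b-delta held more distal peaks than WT, this order follows largely from the numbers of peaks. It did not hold more at equal covered length (43.0% against 46.2% in WT) or at equal number of distal peaks (39.2% against 47.6%). No paired analysis was possible because each group has 1 library. Beside 72.8% and 67.8% of WT and 71.2% and 13.4% of arid4b-delta promoter and distal peaks shared, the order below is WT promoter, WT distal, arid4b-delta promoter, arid4b-delta distal. Lists of equal length gave 58.1, 53.0, 83.4 and 30.8% by fold, and 59.1, 55.1, 83.7 and 32.0% by -log10 q. The upper 50% of each list gave 79.1, 76.3, 62.9 and 15.4%, equal covered length 49.1, 46.2, 88.7 and 43.0%, and a -log10 q of at least 5 gave 71.0, 66.2, 74.1 and 17.7%. With 50% of the peak covered the shares were 64.2, 58.7, 63.9 and 10.2%, within 1000 bp 86.5, 80.4, 82.0 and 17.6%, and with peaks within 1000 bp merged 78.7, 69.7, 74.4 and 12.2%. Peaks of at least 500 bp gave 62.4% for WT promoter, 65.1% for arid4b-delta promoter and 25.2% for arid4b-delta distal peaks. A promoter window of 1000 bp gave 73.8, 74.9 and 15.2% for the same 3, and one of 5000 bp 65.9 and 12.3% for the arid4b-delta pair. Chromosomes 1 to 19 gave 14.1% for arid4b-delta distal peaks.

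WT-only distal peaks overlapped WT mesoderm H3K27ac in 20.5%. The share was 27.2% and 23.9% at equal length by fold and by -log10 q, 37.8% in the upper 50%, 28.3% at equal covered length, 22.9% at a -log10 q of at least 5, 56.7% for long peaks, 24.1% with 50% covered and 22.7% with a window of 1000 bp. Arid4b-delta-only distal peaks overlapped arid4b-delta mesoderm H3K27ac in 19.5%, and in the same order up to 50% covered in 47.9, 50.8, 42.2, 67.6, 28.3, 85.0 and 22.0%, within 1000 bp in 17.7% and merged in 17.9%.

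Genes marked in WT only, 1057, and in arid4b-delta only, 1081, became 1916 and 493 at equal length by fold, 1879 and 491 by -log10 q, 2517 and 267 at equal covered length, and 590 and 508 with long peaks. The upper 50% gave 628 WT-only genes. Listed genes, 23 and 22, became 50 and 14 by fold and 47 and 14 by -log10 q, and the upper 50% gave 41 in arid4b-delta only. Rules of overlap between peaks do not bear on genes and were not run there.

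The following were added after the data were seen. Summits of at least 15 times the background in both lists gave 86.8, 85.4, 63.0 and 19.1% shared, 43.7% and 58.8% with mesoderm, 394 WT-only genes, and 7 and 43 listed genes. Promoter and distal peaks cut apart to equal number gave 47.6% and 39.2% of distal peaks shared, and 28.4% and 61.6% with mesoderm. At equal length by fold the WT list stayed whole, so the 23 listed WT-only genes could not lose that call. Of them 23 kept it there, 6 in the upper 50% and 4 with summits of at least 15 times the background. Of the 22 arid4b-delta-only genes 14, 14 and 16 did. With a window of 1000 bp 19 and 21 kept it, and Wnt3, Wnt8a, Nes, Fdps and Gdf3 were marked in neither genotype. With one of 5000 bp 19 and 21 kept it, and Nanog, Nes, Mcm2, Fdps and Fzd3 were marked in both. With either gene end for every gene Nanog was marked in both. None of the 45 changed sides in these runs, but removing peaks or changing the window width cannot move a gene to the other side. Fold and pileup as scales beside height, given with the values they turn, were also added then.

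Depth is known only through the recovered background of 1.47 and 0.764 fragments, so over the lowest background a WT summit under 9 fragments and an arid4b-delta summit under 6 was not called. With 1 library per genotype, no value here measures the spread between cultures.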
